A study of Homo sapiens with 15 samples.

Results

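The 10 genes described here serve ferroptosis and iron handling: SLC7A11, GPX4, ACSL4 and AIFM1 for redox, lipid and mitochondrial functions, and TFRC, SLC11A2, SLC40A1, FTH1, FTL and NCOA4 for the uptake, export, storage and recycling of iron. They were 10 of the 61552 gene identifiers in the count files. The members were selected on their names and roles, by symbol and with no threshold on any value, but the list was drawn up with earlier results of the same comparisons in view. The adjusted p-values below therefore say where each gene stood among all genes in the fit and are not independent support for the choice.

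RNA-seq was carried out on H1299, an established human lung cancer cell line that has lost its own functional p53, in which p53 constructs were overexpressed. Libraries collected in 2023 carried an empty control vector (Ctrl, 3 libraries) or wild-type p53 (WT, 3 libraries). Libraries collected in 2022 carried p53, LLPSEp53_1 or LLPSEp53_2 (3 libraries each), in a series whose title concerns tuning the liquid-liquid phase separation of p53. The labels do not spell out the changes in the 2 LLPSEp53 constructs, how the constructs were delivered, or how long they were expressed, and the 2022 libraries have no empty-vector group. Year and group cannot be told apart between the sets, so no difference was computed across years. Replicate 2 of p53 is labelled as collected in a different batch, and the batch term in the fit takes up that library alone. Values of p53 below therefore have n = 2 (replicates 1 and 3), and replicate 2 is given separately. Nothing in the labels says that replicates came from separate cultures, so the p-values cover only library-to-library spread, part of which may be technical.

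Ferroptosis is a form of cell death driven by iron-dependent peroxidation of membrane lipids. Cystine imported by the xCT transporter, whose transport subunit is SLC7A11, feeds glutathione synthesis, and GPX4 uses glutathione to reduce lipid peroxides. ACSL4 activates polyunsaturated fatty acids, the lipids that peroxidise most readily, for incorporation into membranes. Repression of SLC7A11 by p53 is a known route by which p53 can favour ferroptosis in some cell lines. Iron enters bound to transferrin through the receptor TFRC, crosses the endosomal membrane through the transporter SLC11A2 (DMT1), is stored in ferritin shells of FTH1 and FTL, is released when NCOA4 delivers ferritin to lysosomes, and leaves the cell through ferroportin, SLC40A1. Iron regulatory proteins bind hairpins, called iron-responsive elements, in the untranslated regions of several of these transcripts. A hairpin in the 5' untranslated region lets them block translation, and hairpins in the 3' untranslated region let them stabilise the message, so RNA counts read only part of this control.

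Matches to a strict form of the iron-responsive element are shown. In the iron genes with a match, they mark whether the hairpin lies before or after the coding sequence. A search of GENCODE 29 transcripts on GRCh38, on the transcribed strand, for an unpaired C, 5 bases, the loop CAGTGN and 5 bases pairing with the first (G-U pairs allowed) found a hairpin in an untranslated region of 4 of the 10 genes, and of 198 of 20371 coding genes searched (0.97%). A match is a description of the letters and not evidence of binding. The windows below run 5' to 3', with the hexaloop in capitals.
FTH1: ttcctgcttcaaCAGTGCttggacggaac
FTL: ctcttgcttcaaCAGTGTttggacggaac
SLC40A1: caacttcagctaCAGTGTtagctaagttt
TFRC: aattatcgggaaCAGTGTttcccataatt
TFRC: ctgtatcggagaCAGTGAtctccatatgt
TFRC: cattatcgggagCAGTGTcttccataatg
TFRC: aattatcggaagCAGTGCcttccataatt
The FTH1 window lies at chr11:61967574-61967602 on the minus strand and the FTL window at chr19:48965335-48965363 on the plus strand. The SLC40A1 window lies at chr2:189580661-189580689 on the minus strand. All 3 are in 5' untranslated regions. The 4 TFRC windows lie on the minus strand in the 3' untranslated region, at chr3:196050463-196050491, chr3:196050510-196050538, chr3:196050575-196050603 and chr3:196050979-196051007. The ferritin windows share the loop-flanking letters cttcaa and ttgga, and the SLC40A1 window differs from both on each side of the loop. The same search found no match in SLC7A11, GPX4, ACSL4, AIFM1, NCOA4 or SLC11A2. This says only that their untranslated regions hold no match to these letters and this pairing within an exon. An element with another stem or loop would be missed, so these genes cannot be said to lack one.

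The libraries held 16208538 to 19228748 counts in 2023 and 13535397 to 16438272 in 2022, and 3 counts correspond to 0.156 to 0.222 CPM (counts scaled to the library total). CDKN1A, a direct p53 target and inhibitor of cyclin-dependent kinases, stood at 706 to 806 CPM of the library total in WT and 229 to 255 in Ctrl, and MDM2, the p53 ubiquitin ligase, at 244 to 303 and 55.2 to 62.1. In 2022 CDKN1A stood at 291 to 684 CPM over all 3 p53 libraries, the highest being replicate 2, which enters no difference. It stood at 403 to 447 in LLPSEp53_1 and 235 to 281 in LLPSEp53_2. Over the p53 libraries MDM2 stood at 169 to 348 CPM, again highest in replicate 2. It stood at 152 to 232 in LLPSEp53_1 and 124 to 168 in LLPSEp53_2. The keratins KRT8 (941 to 1890 CPM) and KRT18 (740 to 1340 CPM) were abundant, whereas the alveolar markers SFTPB and SFTPC reached at most 0.312 and 0.918 CPM and NKX2-1 at most 6.99, so the labelled tissue, lung, describes the origin of the line. Among markers of endothelial, leukocyte, hepatocyte, erythroid and fibroblast cells, PTPRC, HBB and LUM were at 0 in every library, and the markers together summed to between 1.60 and 4.51 CPM per library. Ribosomal protein genes took 2.90% of the counts in p53 replicate 2 and 3.88% to 5.91% in the other 14 libraries, with the highest share in LLPSEp53_1 replicate 3. That library also stood apart from the other LLPSEp53_1 libraries in several genes below. For SLC7A11, GPX4, ACSL4, TFRC, FTH1, FTL and FDXR the difference of LLPSEp53_1 from p53 is also given without it.

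Of the 10 genes, 0 passed an adjusted p of 0.05 between WT and Ctrl, 0 between LLPSEp53_1 and p53, 1 (SLC40A1, higher) between LLPSEp53_2 and p53, and 0 between LLPSEp53_2 and LLPSEp53_1 (edgeR quasi-likelihood test, Benjamini-Hochberg adjustment over all genes). At an unadjusted p under 0.05 the numbers were 1, 2, 3 and 0 in that order, beside 18.2%, 13.1%, 12.8% and 7.23% of all tested genes. DESeq2 called 0, 0, 1 and 0. The shares of all tested genes that passed were 4.12% (665 of 16156), 0.888% (155 of 17459), 1.93% (337 of 17459) and 0.372% (65 of 17459). Calls higher in WT made up 3.24% of the tested genes and calls higher in LLPSEp53_2 than in p53 only 0.103% (18 genes), SLC40A1 among them. All 10 genes passed the filter on low counts in both years. Their log2 differences had a median of -0.0041 between WT and Ctrl, beside -0.011 for all tested genes, and ran from -0.18 to 0.25. The medians were -0.032 for LLPSEp53_1 against p53, 0.0026 for LLPSEp53_2 against p53 and 0.068 for LLPSEp53_2 against LLPSEp53_1, each within the quartiles of all genes. Both comparisons against p53 share the same p53 libraries and are not independent of each other.

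**Figure D1:**
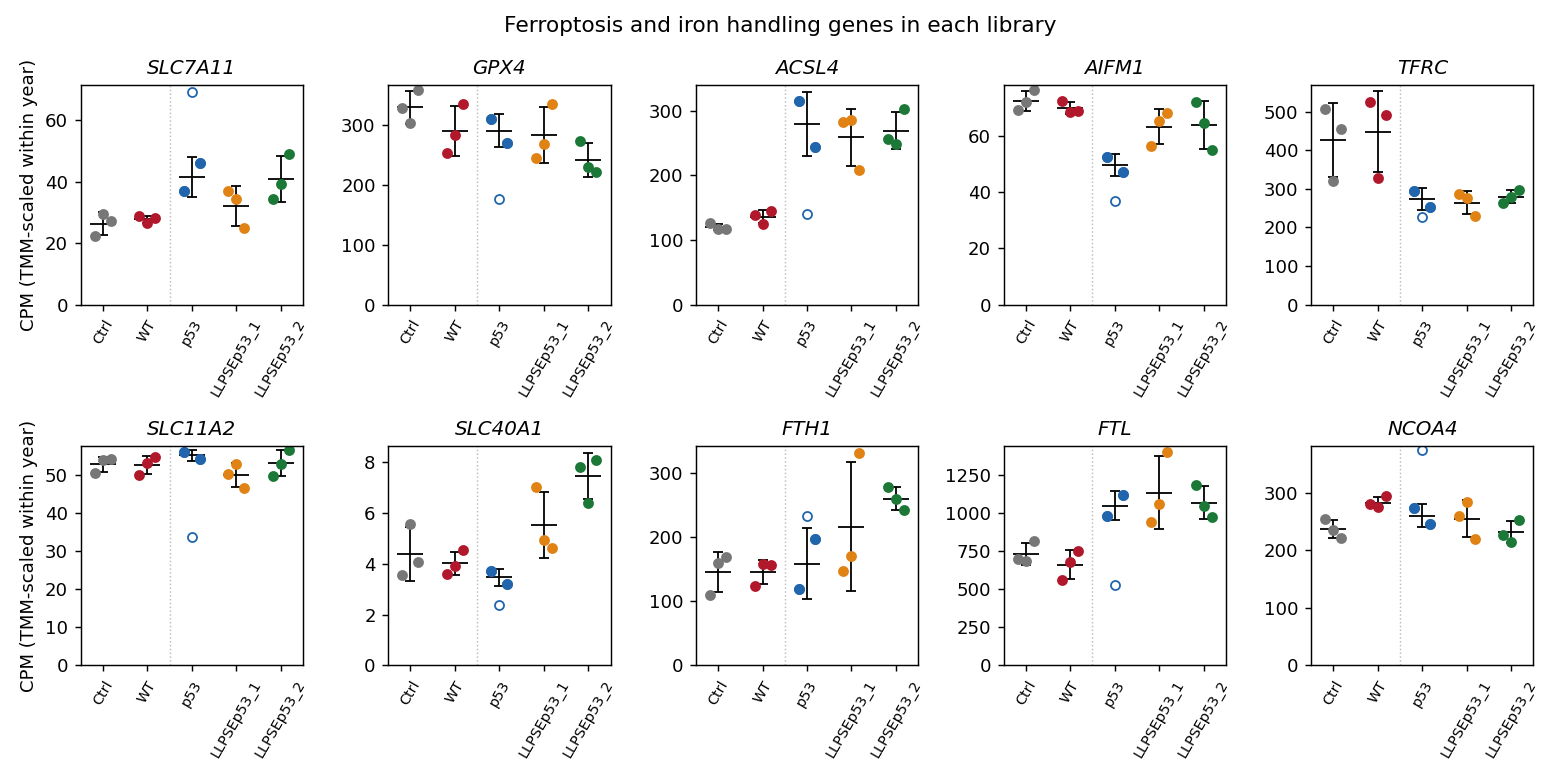
Scaled CPM of each gene (y axis, a separate scale per panel, from 0) in each library by group (x axis), with 2023 left and 2022 right of the dotted line. Points are libraries, bars are the mean ± SD, and the open circle is p53 replicate 2, which enters no mean; SLC40A1 and FTH1 sit above p53 replicates 1 and 3 in all 3 LLPSEp53_2 libraries.

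Levels were compared between genes only per kilobase of exon. The length covers all annotated exons of a gene, whether or not they are used in these cells, and the order depends on it. The order may also depend on how reads matching FTH1 or FTL and their annotated copies were assigned, which is not given. FTL was first in every group, from 756 ± 109 CPM per kb in WT to 1294 ± 272 in LLPSEp53_1 (mean ± SD, n = 3). GPX4 followed in WT (144 ± 20.8), Ctrl (163 ± 13.6), p53 (144 ± 13.7, n = 2) and LLPSEp53_1 (141 ± 23.2), where FTH1 (107 ± 49.3) overlapped it. In LLPSEp53_2 FTH1 (128 ± 8.90) and GPX4 (120 ± 13.9) also overlapped, with FTH1 the higher mean. FTH1 in the other groups, and NCOA4, TFRC, ACSL4 and AIFM1 in all, came next, and FTH1 and NCOA4 overlapped in WT, Ctrl and p53. The lowest 3 were SLC11A2, SLC7A11 and SLC40A1 in every group, with SLC11A2 and SLC7A11 overlapping in LLPSEp53_2. SLC40A1 stood last throughout, at 0.801 ± 0.0786 CPM per kb in p53 and 1.72 ± 0.210 in LLPSEp53_2. Among the genes that passed the filter on low counts, FTL ranked at or above the 99.8th percentile per kb in each library. SLC40A1 ranked between the 14.7th and the 35.4th.

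SLC7A11 (ENSG00000151012, chr4:138164097-138242349, minus strand) stood at 28.7, 26.5 and 28.2 CPM in the WT libraries and at 22.3, 29.5 and 27.2 in Ctrl. The WT values fell inside the Ctrl range, so no drop of the SLC7A11 message was detected with wild-type p53. In bulk RNA, fewer cells expressing a gene and less RNA per cell cannot be told apart. The log2 difference was 0.08 ± 0.13 (SE), its 95% interval ran from -0.19 to 0.34, and the adjusted p was 0.81. With each library's trend with GC content removed the difference was -0.12, also not called.

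In 2022 SLC7A11 read 37.0 and 46.1 CPM in p53 replicates 1 and 3 and 69.2 in replicate 2, the highest value of that year. LLPSEp53_1 read 37.1, 34.4 and 24.9 CPM, and LLPSEp53_2 34.3, 39.4 and 49.1. The lowest library was LLPSEp53_1 replicate 3, and the ranges of the groups overlapped. LLPSEp53_1 differed from p53 by -0.37 ± 0.20 on the log2 scale (95% interval -0.81 to 0.07, adjusted p 0.448), and LLPSEp53_2 by -0.02 ± 0.20 (-0.46 to 0.42). Without LLPSEp53_1 replicate 3 the LLPSEp53_1 difference was -0.21 (adjusted p 0.699). The antisense transcript SLC7A11-AS1 had 1 to 12 counts per library, at most 1.12% of the counts of SLC7A11.

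GPX4 (ENSG00000167468, chr19:1103926-1106791, plus strand), the selenoenzyme that reduces lipid hydroperoxides, read 253, 283 and 336 CPM in WT and 328, 303 and 358 in Ctrl. The highest WT library stood among the Ctrl libraries, and the other 2 below all of them. The log2 difference was -0.18 ± 0.12 (95% interval -0.44 to 0.07, adjusted p 0.461). In 2022 GPX4 read 310 and 271 CPM in p53, 246, 269 and 336 in LLPSEp53_1, and 274, 230 and 221 in LLPSEp53_2. LLPSEp53_2 held the lowest values but its highest library passed the lower p53 library. The log2 differences from p53 were -0.03 ± 0.16 for LLPSEp53_1 (-0.17 without its replicate 3) and -0.27 ± 0.16 for LLPSEp53_2 (95% interval -0.62 to 0.09, adjusted p 0.541). Replicate 2 of p53 stood at 177 CPM, below the other 8 libraries of that year.

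ACSL4 (ENSG00000068366, chrX:109624244-109733403, minus strand) read 139, 125 and 144 CPM in WT and 126, 118 and 117 in Ctrl. Only WT replicate 2, narrowly, fell below the highest Ctrl library. The log2 difference of 0.18 ± 0.10 had a 95% interval from -0.04 to 0.40 and an adjusted p of 0.38. In 2022 the values were 315 and 244 CPM in p53, 283, 286 and 208 in LLPSEp53_1, and 256, 249 and 302 in LLPSEp53_2, with 140 in p53 replicate 2. All 3 groups overlapped, and the differences from p53 were -0.11 ± 0.17 for LLPSEp53_1 (0.03 without its replicate 3) and -0.05 ± 0.18 for LLPSEp53_2 on the log2 scale.

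AIFM1 (ENSG00000156709, chrX:130129362-130165887, minus strand) encodes apoptosis-inducing factor, a mitochondrial flavoprotein related to the ferroptosis suppressor AIFM2. In 2023 it read 72.6, 68.4 and 68.9 CPM in WT and 69.1, 72.0 and 76.2 in Ctrl, with overlapping ranges. The log2 difference was -0.05 ± 0.10 (95% interval -0.26 to 0.16).

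In 2022 AIFM1 read 52.6 and 47.1 CPM in p53. It read 56.5, 65.4 and 68.3 CPM in LLPSEp53_1 and 72.0, 64.5 and 55.0 in LLPSEp53_2. All 6 libraries of the LLPSEp53 constructs stood above both p53 libraries, and p53 replicate 2 was lowest at 37.0 CPM. The log2 differences were 0.35 ± 0.16 for LLPSEp53_1 (95% interval 0.00 to 0.69, adjusted p 0.379) and 0.36 ± 0.16 for LLPSEp53_2 (0.01 to 0.70, adjusted p 0.371), so neither passed. Libraries that do not overlap with p53 were seen for 3 of the 10 genes in each comparison (AIFM1 and SLC40A1 in both, SLC11A2 for LLPSEp53_1 and FTH1 for LLPSEp53_2), beside 26.9% of all tested genes for LLPSEp53_1 and 33.1% for LLPSEp53_2. Between the LLPSEp53 constructs 0 of the 10 genes were separated in this way, beside 13.0% of all genes.

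**Figure D2:**
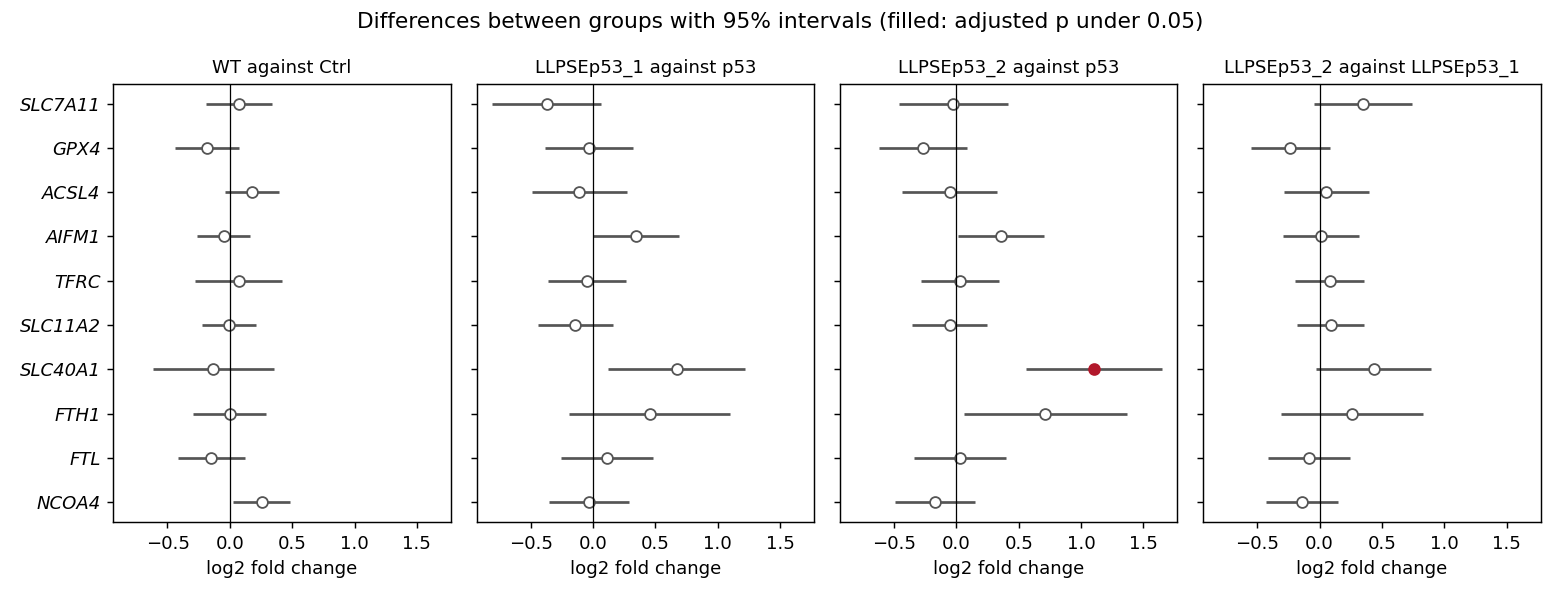
Log2 difference (x axis) of each gene (y axis) in the 4 comparisons, with 95% intervals as lines. The filled point, SLC40A1 in LLPSEp53_2 against p53 at 1.10, is the only difference with an adjusted p under 0.05.

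TFRC (ENSG00000072274, chr3:196027183-196082189, minus strand), the transferrin receptor, read 524, 328 and 491 CPM in WT replicates 1 to 3 and 505, 319 and 454 in Ctrl replicates 1 to 3. In each group the library numbered 2 was far below the others, and the spread within a group exceeded the difference between groups. The log2 difference was 0.07 ± 0.17, with a 95% interval from -0.28 to 0.42. In 2022 TFRC read 293 and 253 CPM in p53, 288, 275 and 230 in LLPSEp53_1, and 263, 278 and 297 in LLPSEp53_2, with 226 in p53 replicate 2. The groups overlapped throughout, and the differences from p53 were -0.05 ± 0.14 for LLPSEp53_1 (0.04 without its replicate 3) and 0.03 ± 0.14 for LLPSEp53_2 on the log2 scale.

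SLC11A2 (ENSG00000110911, chr12:50979401-51028566, minus strand), which carries iron out of endosomes, was the steadiest of the iron genes. It read 49.9, 53.1 and 54.5 CPM in WT and 50.4, 53.7 and 54.1 in Ctrl. The ranges nearly coincided, and the log2 difference was -0.01 ± 0.10 (95% interval -0.22 to 0.21). In 2022 it read 56.0 and 54.1 CPM in p53, 50.1, 52.9 and 46.6 in LLPSEp53_1, and 49.6, 52.9 and 56.5 in LLPSEp53_2. LLPSEp53_1 lay wholly below p53, by -0.14 ± 0.14 on the log2 scale (adjusted p 0.668). The outlying value was p53 replicate 2, at 33.7 CPM.

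SLC40A1 (ENSG00000138449, chr2:189560579-189583758, minus strand) encodes ferroportin, the exporter of cellular iron, and was scarce. In 2023 it read 3.61, 3.91 and 4.53 CPM in WT and 3.55, 5.57 and 4.07 in Ctrl, from 60 to 99 counts per library. The groups overlapped, with a log2 difference of -0.13 ± 0.23 (95% interval -0.62 to 0.36).

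In 2022 SLC40A1 read 3.71 and 3.23 CPM in p53 (58 and 52 counts) and 2.40 in p53 replicate 2 (37 counts). LLPSEp53_1 read 7.03, 4.96 and 4.62 CPM (96, 74 and 75 counts), and LLPSEp53_2 read 7.83, 6.41 and 8.11 CPM (127, 99 and 129 counts). All 6 libraries of the LLPSEp53 constructs lay above the p53 libraries. LLPSEp53_2 was 2.15-fold higher than p53 (7.45 ± 0.911, n = 3, against 3.47 ± 0.34, n = 2, mean ± SD), a log2 difference of 1.10 ± 0.25 with a 95% interval from 0.56 to 1.65 and an adjusted p of 0.0434. LLPSEp53_1 was higher by 0.67 ± 0.25 (0.12 to 1.22), which did not pass (adjusted p 0.299). Between the LLPSEp53 constructs the difference of 0.43 ± 0.21 (-0.03 to 0.90, adjusted p 0.726) did not pass either.

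The SLC40A1 call was narrow. It did not pass when p53 replicate 1 (adjusted p 0.198) or 3 (0.27), LLPSEp53_1 replicate 2 (0.0667), or LLPSEp53_2 replicate 1 (0.144), 2 (0.0873) or 3 (0.128) was left out, while its log2 difference stayed between 1.004 and 1.21. It passed with DESeq2 (adjusted p 0.0148), without the filter on low counts (0.00726) and with the GC trend removed (0.0245).

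FTH1 (ENSG00000167996, chr11:61959718-61967660, minus strand), the ferritin heavy chain that oxidises iron for storage, read 124, 158 and 156 CPM in WT and 111, 159 and 169 in Ctrl. The mean of each group was 146 CPM, and the log2 difference was -0.00098 ± 0.14 (95% interval -0.29 to 0.29). In 2022 FTH1 read 119 and 197 CPM in p53, 147, 171 and 331 in LLPSEp53_1, and 278, 260 and 242 in LLPSEp53_2, with 234 in p53 replicate 2. The LLPSEp53_2 libraries were all above p53, while LLPSEp53_1 replicate 3 exceeded the other libraries of that year.

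LLPSEp53_2 differed from p53 in FTH1 by 0.72 ± 0.30 on the log2 scale (1.64-fold, 95% interval 0.06 to 1.37, adjusted p 0.334), which did not pass. It passed when LLPSEp53_1 replicate 3 was left out (adjusted p 0.0142), when only p53 and LLPSEp53_2 were fitted (0.00894) and without the filter on low counts (0.00214), with a log2 difference of 0.71 to 0.72 each time. The difference was 0.40 without p53 replicate 1 (adjusted p 0.853) and 1.12 without p53 replicate 3 (adjusted p 0.286), so its size rests on which p53 library is kept. LLPSEp53_1 differed from p53 by 0.45 ± 0.30 (-0.19 to 1.10), or 0.01 without its replicate 3. Between the LLPSEp53 constructs the difference was 0.26 ± 0.26 (adjusted p 0.869) with that library and 0.70, called at an adjusted p of 0.0456, without it. The 25 annotated FTH1 copies held 51 to 88 counts per library in sum, 1.34% to 4.14% of the counts of FTH1. How reads matching both were assigned is not given in the sources used here.

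**Figure D3:**
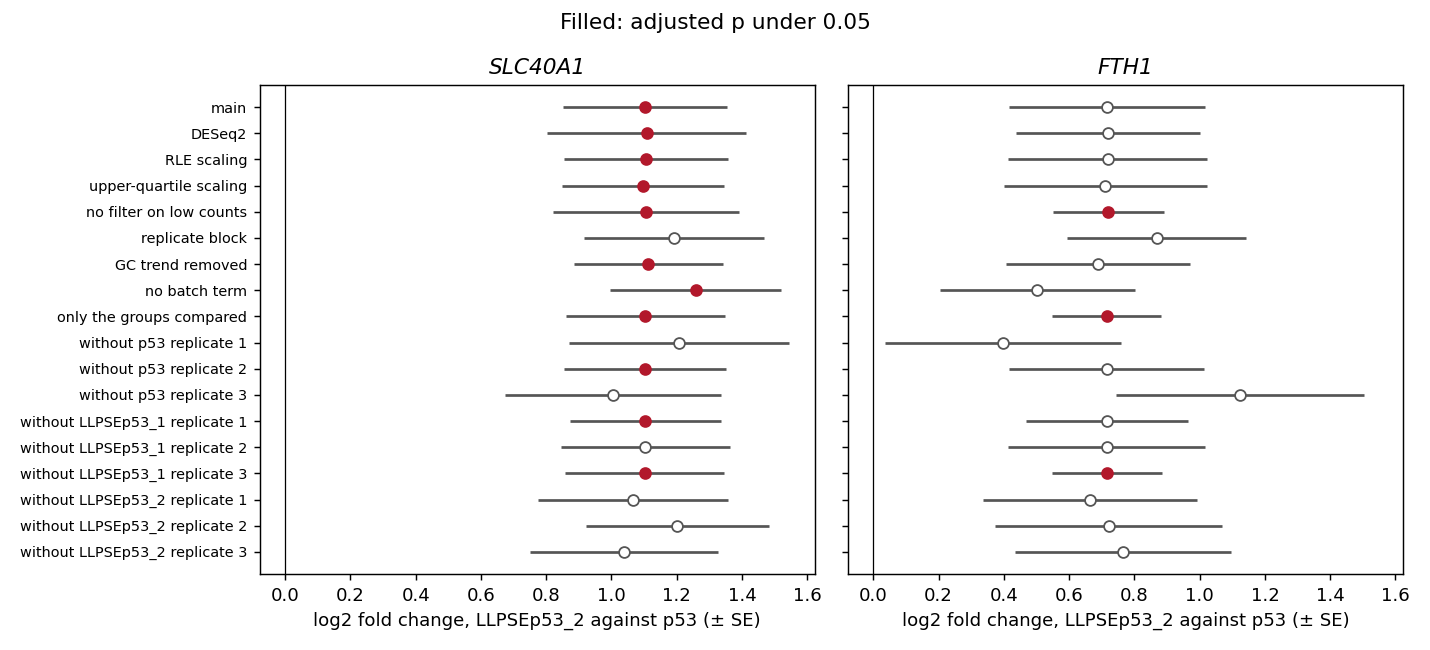
Log2 difference between LLPSEp53_2 and p53 (x axis, ± SE) of SLC40A1 and FTH1 under each setting (y axis). Filled points have an adjusted p under 0.05: the size of the SLC40A1 difference stays between 1.004 and 1.26 while its call comes and goes, and FTH1 passes in 3 settings.

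FTL (ENSG00000087086, chr19:48965301-48966878, plus strand), the ferritin light chain, read 562, 678 and 751 CPM in WT and 699, 688 and 818 in Ctrl. The groups overlapped, at a log2 difference of -0.15 ± 0.13 (95% interval -0.42 to 0.12, adjusted p 0.597). In 2022 it read 983 and 1118 CPM in p53, 940, 1065 and 1402 in LLPSEp53_1, and 1189, 1046 and 977 in LLPSEp53_2. Again LLPSEp53_1 replicate 3 was highest, p53 replicate 2 lowest (528), and the groups overlapped. The differences from p53 were 0.11 ± 0.17 and 0.03 ± 0.17 on the log2 scale, the former -0.06 without LLPSEp53_1 replicate 3.

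The messages of the 2 ferritin chains did not keep a fixed ratio, even within p53, LLPSEp53_1 or Ctrl. The 16 annotated FTL copies held 15 to 60 counts per library in sum, 0.18% to 0.48% of the counts of FTL. How reads matching FTH1 or FTL and their copies were assigned is not given, so the level of the ratio may depend on it. FTL over FTH1 in scaled counts was 4.03 to 4.28 in the LLPSEp53_2 libraries, 8.26 and 5.66 in p53 and 6.39, 6.23 and 4.23 in LLPSEp53_1, with 2.26 in p53 replicate 2. The LLPSEp53_2 ratios lay below those of p53 replicates 1 and 3 but above that of p53 replicate 2, and they overlapped LLPSEp53_1 through its replicate 3. In 2023 the ratio was 4.52, 4.29 and 4.81 in WT and 6.32, 4.33 and 4.84 in Ctrl, and the ranges overlapped. Iron regulatory proteins block translation of ferritin messages and stabilise the TFRC message, so a ratio of RNA reads only part of this control. The ferritin sum over TFRC was 1.31, 2.55 and 1.85 in WT and 1.60, 2.66 and 2.18 in Ctrl. In 2022 it was 3.75 and 5.20 in p53 (3.37 in replicate 2, the lowest of that year), 3.78, 4.49 and 7.53 in LLPSEp53_1, and 5.57, 4.69 and 4.11 in LLPSEp53_2. These ratios overlapped between the groups of each year.

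**Figure D4:**
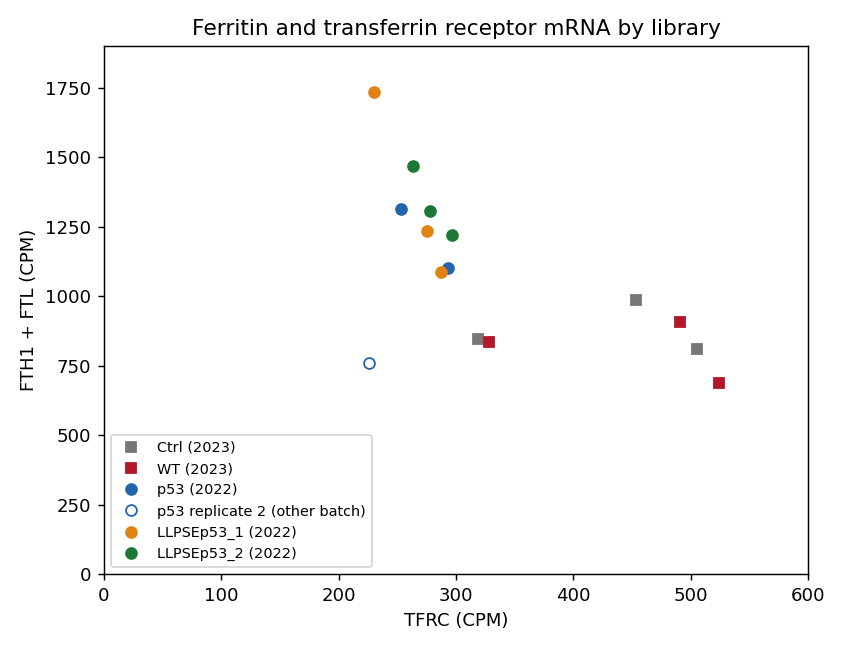
Summed CPM of FTH1 and FTL (y axis) against CPM of TFRC (x axis), 1 point per library, squares for 2023 and circles for 2022. LLPSEp53_1 replicate 3 stands apart at a ferritin sum of 1733, p53 replicate 2 (open circle) at 761, and the replicate 2 libraries of 2023 lie at TFRC values of 328 (WT) and 319 (Ctrl).

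NCOA4 (ENSG00000266412, chr10:46005088-46030714, minus strand), the receptor that takes ferritin to lysosomes, read 280, 275 and 294 CPM in WT and 254, 236 and 222 in Ctrl. It was the only gene of the 10 whose WT and Ctrl libraries did not overlap, a separation also seen in 22.4% of all tested genes. WT was higher by 0.25 ± 0.11 on the log2 scale (283 ± 9.65 against 237 ± 16.0 CPM, n = 3 each), with a 95% interval from 0.03 to 0.48, and did not pass (adjusted p 0.213). In 2022 NCOA4 read 274 and 246 CPM in p53, 259, 284 and 220 in LLPSEp53_1, and 227, 214 and 252 in LLPSEp53_2. The groups overlapped, while p53 replicate 2 was the highest library of that year at 373. The differences from p53 were -0.03 ± 0.15 and -0.17 ± 0.15.

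Replicate 2 of p53 stood outside the range of the other 8 libraries of 2022 in 9 of the 10 genes, high in SLC7A11 and NCOA4 and low in GPX4, ACSL4, AIFM1, SLC40A1, TFRC, FTL and SLC11A2. The share of all tested genes outside that range was not computed, so this cannot be called particular to the 10 genes. Over all genes, replicate 2 differed from p53 replicates 1 and 3 by 128 and 114 times counting noise (chi-square per degree of freedom). Replicates 1 and 3 differed from each other by 15.5 times. Replicate 2 enters no difference in the fit with the batch term. Kept as an ordinary p53 library it turned the sign of GPX4 (0.17), ACSL4 (0.15), TFRC (0.04) and SLC11A2 (0.06) between LLPSEp53_1 and p53 and of ACSL4 (0.21) and SLC11A2 (0.15) between LLPSEp53_2 and p53, none of them called.

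The other genes of these pathways were taken from 5 lists, drawn up by role and with earlier results of these data known. Between WT and Ctrl, 4 of the 78 listed genes that could be tested passed (5.13%), all higher in WT, a share near the 4.12% of all tested genes that passed (3.24% higher).

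Of the 10 tested genes of cystine and glutathione metabolism, GLS2 passed, and 2 stood at an unadjusted p under 0.05. GLS2 (chr12:56470944-56488414), a mitochondrial glutaminase and known p53 target, read 1.49, 2.10 and 0.882 CPM in WT and 0.414, 0.0563 and 0.271 in Ctrl. These values rest on 15 to 35 counts in WT and 1 to 7 in Ctrl, yet the groups did not overlap. The log2 difference was 2.57 ± 0.54 (adjusted p 0.0059), and did not pass without Ctrl replicate 3 (2.65, adjusted p 0.0605). GLS2 overlaps SPRYD4 on the opposite strand, which had up to 249 counts, and without a stated strand setting reads of the pair cannot be told apart. In 2022 GLS2 had 4 to 15 counts in all libraries but p53 replicate 2, which had 66. The other gene at an unadjusted p under 0.05 between WT and Ctrl was SLC3A2, lower in WT. It read 686 ± 50.2 CPM in WT and 902 ± 31.0 in Ctrl (mean ± SD, n = 3 each). The log2 difference of SLC3A2 was -0.40 ± 0.12 and did not pass (adjusted p 0.0623).

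Of 15 tested genes of iron transport and its control, STEAP2 passed. STEAP2 (chr7:90167590-90238137), a metalloreductase of the family that reduces endosomal iron, read 37.6, 34.3 and 34.6 CPM in WT and 19.7, 24.2 and 17.1 in Ctrl. The groups stood well apart, at 1.75-fold (log2 0.80 ± 0.13, adjusted p 5.73e-04). It read 59.0 CPM in p53 replicate 2, inside the range of the other p53 libraries.

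Of 20 tested genes of mitochondrial iron, iron-sulfur clusters and heme, FDXR and ISCU passed. FDXR (chr17:74862497-74873031), ferredoxin reductase and a known p53 target, read 66.1, 73.3 and 65.9 CPM in WT and 21.3, 19.9 and 20.4 in Ctrl. This was 3.33-fold (log2 1.74 ± 0.11, adjusted p 1.19e-09). ISCU (chr12:108562582-108569384), the scaffold on which iron-sulfur clusters are assembled, read 75.8, 82.3 and 87.1 CPM in WT and 58.0, 63.1 and 61.2 in Ctrl, 1.35-fold (log2 0.43 ± 0.10, adjusted p 0.017). For each gene the libraries of 2023 did not overlap between the groups. The ISCU call was lost without WT replicate 2 (adjusted p 0.0596) or 3 (0.126), or Ctrl replicate 1 (0.0513) or 3 (0.0682), at log2 differences of 0.38 to 0.44. In 2022 ISCU read 75.5 and 88.6 CPM in p53 and 67.8 in p53 replicate 2, below both. In 2022 FDXR read 13.5 and 18.5 CPM in p53 and 47.9 in p53 replicate 2. It read 25.1, 27.0 and 39.3 CPM in LLPSEp53_1 and 18.6, 17.5 and 14.7 in LLPSEp53_2. LLPSEp53_1 lay above p53, by 0.93 ± 0.22 on the log2 scale, without passing (adjusted p 0.0849). Without LLPSEp53_1 replicate 3 the difference was 0.71 (adjusted p 0.0671), and it passed without LLPSEp53_1 replicate 1 (1.05, adjusted p 0.0273), with DESeq2 (0.00858), without the filter on low counts (6.92e-04) and with the GC trend removed (0.00854). With p53 replicate 2 kept as an ordinary library the difference was 0.20.

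Of 18 tested genes of lipid peroxidation and 15 other ferroptosis suppressors, 0 passed between WT and Ctrl, with 3 and 2 at an unadjusted p under 0.05. Their median log2 differences were -0.0022 and 0.032. In the 3 comparisons of 2022, 0 genes of any of the 5 lists passed. At an unadjusted p under 0.05 the lists held 0 to 3 genes each, and their medians ran from -0.14 to 0.13.

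**Figure D5:**
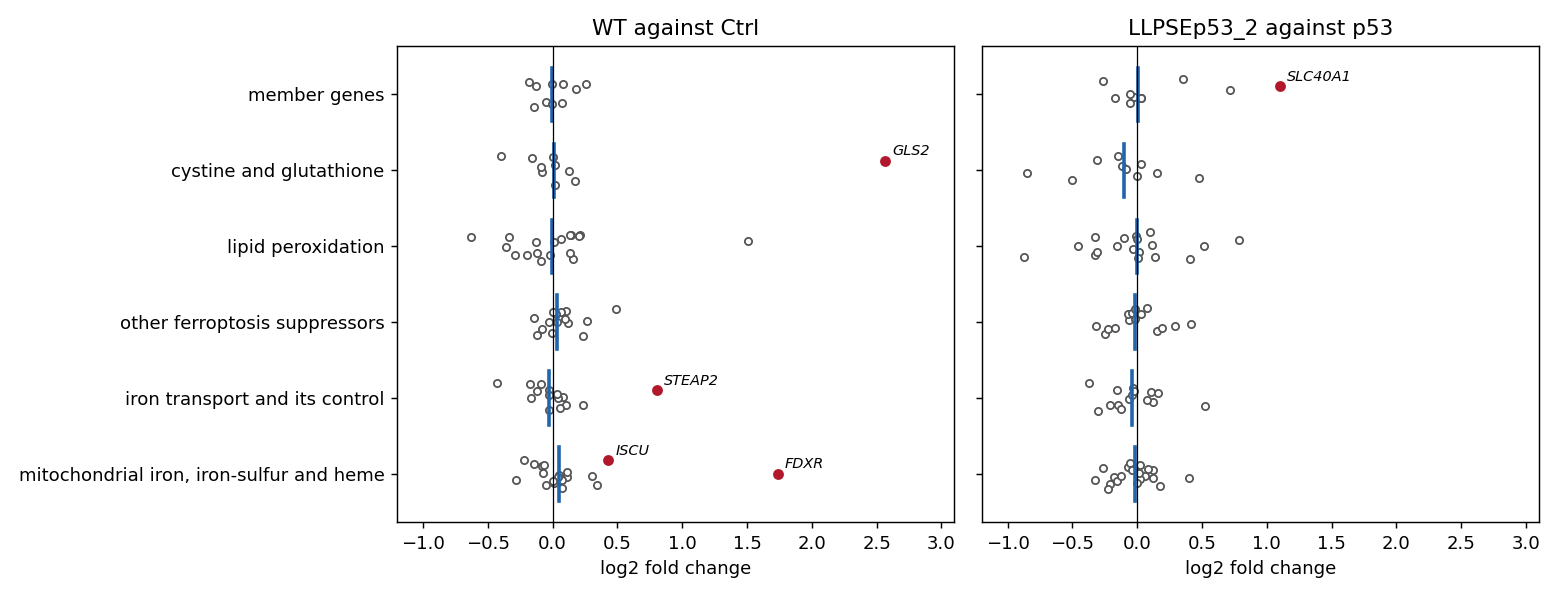
Log2 differences (x axis) of the 10 genes and of the tested genes of the 5 pathway lists (y axis) for WT against Ctrl and LLPSEp53_2 against p53. Each circle is a gene, blue lines are list medians, and filled circles passed an adjusted p of 0.05: GLS2, STEAP2, ISCU and FDXR at left and SLC40A1 at right.

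The genes whose pattern was most like that of SLC7A11, TFRC and SLC40A1 were looked up by Pearson correlation of log2 CPM, centred within each year, over the 14 libraries other than p53 replicate 2 and among 11880 genes. Libraries share depth and group differences, so these values are a description. For SLC7A11 they were WASF3 (0.976), NCOA2 (0.923) and ANK2 (0.917). For TFRC they were ANLN (0.909), CALD1 (0.900) and FRMD6 (0.885). For SLC40A1 they were EXO1 (0.829), CNR1 (0.821) and USP4 (0.820). Among the 10 genes the highest values were 0.79 for ACSL4 with NCOA4, and 0.76 for GPX4 with FTL and for SLC7A11 with SLC11A2, and ACSL4 ran against FTL at -0.71.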

How the data were processed

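RNA-seq measured total RNA of H1299 cells in 15 libraries. The submitters' processing notes name Trimmomatic 0.39, STAR 2.7.10a and the build GRCh38. For the counting tool, annotation and strand setting, nothing is stated in the labels or headers. Per gene, the deposited tables hold raw whole-number counts, a unit read from the values. Each row names a gene, so none was left out. Symbols were found for 61399 of 61552 IDs, and positions are those of GENCODE 29 for 58352 of them.

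Counts were fitted with edgeR 4.0.16 (R 4.3.3, limma 3.58.1; quasi-likelihood, TMM scaling, filterByExpr, Benjamini-Hochberg threshold 0.05) on the 6 libraries of 2023 and, with a batch term, the 9 of 2022. Printed CPM are TMM-scaled within year unless given as of the library total. The SE is the log2 difference divided by the square root of the F statistic. The fit was tested on simulated data. DESeq2 1.42.0, other scalings, no filter, a replicate block, removal of GC trends, no batch term, fewer groups and leaving out each library were alternatives. Those for GLS2, STEAP2, FDXR and ISCU were chosen after seeing the data. Libraries held 13535397 to 19228748 counts. Replicates differed by 7.46 to 128 times counting noise (chi-square per degree of freedom), and by at most 48 times without p53 replicate 2. Over all genes together the spread between libraries thus limits precision more than depth, which need not hold for genes with few counts.

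The members and gene lists were chosen with earlier results of these data known. All members are named, with up to 3 genes per list that passed, 3 most correlated genes for SLC7A11, TFRC and SLC40A1, and CDKN1A and MDM2 as a label check. SLC3A2, which did not pass, is named as well and was chosen after seeing its values. Intervals of 95% cover the spread between libraries. Certain results of the series are not reported here.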

Additional observations from a re-analysis of the deposited data

How the results depend on the processing

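Of 630 differences of the 10 genes recomputed under alternatives, 562 kept their direction and side of the threshold, 57 turned sign, 7 no longer passed and 4 newly passed. None of the 57 was called, and none exceeded 0.21 on the log2 scale; the cause was not tested. Leaving out p53 replicate 1 or 3 leaves p53 with 1 library in the difference, assumed to vary like the others. Depth limits SLC40A1 most, at 37 to 129 counts per library.

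Calls among all genes moved more. WT against Ctrl gave 356 to 1381 calls with each library left out in turn (356 without WT replicate 1, 1381 without Ctrl replicate 2). LLPSEp53_1 against p53 gave 258 with DESeq2, 562 without the filter, 258 with the GC trend removed, 94 without the batch term, 64 with only the groups compared, and 0 to 568 with each library left out. The 0, from edgeR without p53 replicate 3, stood beside 1634 genes at an unadjusted p under 0.05. LLPSEp53_2 against p53 gave 823 without the filter, 568 with the GC trend removed, 1040 with only the groups compared, and 93 to 928 with each library left out. LLPSEp53_2 against LLPSEp53_1 gave 151 with DESeq2, 235 without the filter, 111 with the GC trend removed, 3 without the batch term, 35 with only the groups compared, and 21 to 198 with each library left out.

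Of the 10 genes, those called between LLPSEp53_2 and p53 numbered 2 without the filter, 2 with only the groups compared, and 0 to 2 with each library left out. Between the LLPSEp53 constructs, 0 to 1 was called with each library left out.

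Same-numbered WT and Ctrl libraries deviated together at correlations of 0.196, 0.42 and 0.0325, and WT replicate 3 correlated best with Ctrl replicate 1 (0.264), so not every library matched its own number. The numbers were not taken as pairs. With the replicate block, 1645 genes were called between WT and Ctrl, 40 between LLPSEp53_1 and p53, 183 between LLPSEp53_2 and p53 and 33 between the LLPSEp53 constructs. The block gave 0 calls among the 10 genes between LLPSEp53_2 and p53, with SLC40A1 at a log2 difference of 1.19 and an edgeR adjusted p of 0.0724, and 2 genes at an unadjusted p under 0.05. It turned FTH1 between WT and Ctrl to 0.014 and GPX4 between LLPSEp53_1 and p53 to 0.0033.

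Other signs that turned were as follows, on the log2 scale. Between WT and Ctrl, upper-quartile scaling gave 0.012 for FTH1 and 0.0052 for SLC11A2, and removal of the GC trend gave -0.12 for SLC7A11, 0.016 for GPX4, -0.0496 for TFRC and 0.083 for FTH1. Between LLPSEp53_1 and p53 without the batch term, GPX4 was at 0.17, ACSL4 at 0.15, TFRC at 0.038 and SLC11A2 at 0.057. Between LLPSEp53_2 and p53, removal of the GC trend gave 0.037 for SLC7A11, 0.018 for ACSL4 and -0.013 for FTL, and leaving out the batch term gave 0.21 for ACSL4 and 0.15 for SLC11A2. Between the LLPSEp53 constructs, AIFM1 was at -0.0027 with DESeq2, -0.0026 with RLE scaling and -0.029 with the GC trend removed.

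With each library left out, values between WT and Ctrl ran from -0.027 to 0.16 for SLC7A11, -0.26 to 0.074 for SLC40A1, -0.099 to 0.25 for TFRC, -0.17 to 0.12 for FTH1 and -0.037 to 0.028 for SLC11A2. Between LLPSEp53_1 and p53 they ran from -0.17 to 0.0701 for GPX4, -0.28 to 0.088 for ACSL4, -0.15 to 0.066 for TFRC, -0.064 to 0.23 for FTL and -0.12 to 0.067 for NCOA4. Between LLPSEp53_2 and p53 they ran from -0.17 to 0.14 for SLC7A11, -0.23 to 0.14 for ACSL4, 1.004 to 1.21 for SLC40A1, -0.073 to 0.14 for TFRC, 0.40 to 1.12 for FTH1 and -0.0600 to 0.12 for FTL. Between the LLPSEp53 constructs they ran from -0.084 to 0.13 for ACSL4, -0.088 to 0.11 for AIFM1, -0.015 to 0.14 for TFRC, 0.048 to 0.70 for FTH1 and -0.20 to 0.091 for FTL.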
